A study of Mus musculus with 66 samples.

Results

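The carriers that take up neurotransmitters and amino acids across the cell membrane, and those that load transmitters into synaptic vesicles, were described in RNA-seq of mouse ventral striatum. They comprised 37 of the 24138 genes listed, namely each gene whose symbol is Slc1a, Slc6a, Slc17a, Slc18a or Slc32a followed by a number. The rule used symbols alone and no measured value, though it was set with earlier results of these data known. Related symbols that end in a letter, such as Slc6a20a, were not included. Tissue punches came from adult male mice (C57BL/6 in the labels, C57BL/6J background per the study) of 2 genotypes, wild type (WT) and iMSN-D2RKO. In iMSN-D2RKO mice both copies of the dopamine D2 receptor gene are floxed (D2R flox/flox) and 1 D1R-CRE transgene is present. Its D1R promoter is active in the embryonic precursors of both kinds of medium spiny neuron, and the deletion therefore reaches the indirect pathway neurons (iMSN). Mice of each genotype received saline or 20 mg/kg cocaine by intraperitoneal injection at ZT3, where ZT counts hours from lights on, and tissue was taken at ZT7, ZT11, ZT15, ZT19 and ZT23. A further 3 libraries per genotype were taken at ZT3 and belong to both the saline and the cocaine series. This gave 66 libraries in 22 groups of 3. The labels do not say whether the 3 replicates of a group are separate animals, so the tests measure the spread between these libraries.

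Plasma membrane transporters of the SLC1 and SLC6 families use the sodium gradient to clear transmitter from the space around synapses or to bring in amino acids. Vesicular transporters of the SLC17, SLC18 and SLC32 families fill synaptic vesicles, and which of them a neuron expresses is widely used to name its transmitter. Most neurons whose cell bodies lie in the striatum are GABAergic, whereas glutamate and dopamine reach it in axons from cortex, thalamus and midbrain, whose transcripts are made elsewhere. Cocaine blocks the dopamine, noradrenaline and serotonin transporters, all of them SLC6 proteins.

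Levels were FPKM, fragments per kilobase of transcript scaled to library size, as deposited. The sum over all genes was 364078 to 690048 FPKM per library (median 396432), and 12496 to 13028 genes reached 1 FPKM. The highest sum was in iMSN-D2RKO saline ZT7 replicate 1, and the next highest was 465297. Spiny neuron markers were abundant in every library (12 of 12 above a mean of 1 FPKM, summed level 2741 to 15853 FPKM). On the leading axis of variation inside groups, 13 libraries stood apart from the other 53. Of these 13, 12 were taken at ZT15, ZT19 or ZT23 and 1 at ZT7, and both genotypes and both treatments were among them. They are called set-apart libraries here. Drd2, the targeted gene, averaged 140 ± 47.4 FPKM (SD, n = 18) in WT and 149 ± 87.6 FPKM (n = 18) in iMSN-D2RKO libraries of the saline series, with a limma adjusted p of 0.978. A gene-level FPKM does not separate the exon that the study's probes tested, so Drd2 gives no check of the genotype labels here. At ZT15 to ZT23, Drd2 was 246 ± 53.3 FPKM in the 12 set-apart and 120 ± 33.6 FPKM in the 24 other libraries.

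Across the 66 libraries, 22 of the 37 transporters had a mean of at least 1 FPKM. Of the remaining 15, 14 were above 0 in at least 1 library and Slc6a18 was listed at 0 throughout. The 37 genes together summed to 1072 ± 125 FPKM per library (SD, n = 66). Plasma membrane glutamate uptake (5 genes) made up 36.9% of this sum on average, uptake of GABA, betaine and taurine (5 genes) 20.1%, vesicular GABA and glycine loading (1 gene) 15.2%, and vesicular glutamate loading (3 genes) 9.80%. In the 13 set-apart libraries glutamate uptake averaged 48.9% and vesicular GABA loading 8.76%, against 34% and 16.8% in the other 53. The share of vesicular glutamate loading ranged from 1.2% to 22.5% between libraries. FPKM is scaled to transcript length, so levels of different genes can be set side by side. Neighbours in the order of means mostly overlapped. Slc1a2 exceeded the next gene, Slc32a1, in 51 of 66 libraries, and Slc32a1 exceeded Slc1a3 in 52 of 66. Slc32a1 was above Slc1a3 in 0 of the 13 set-apart and 52 of the 53 other libraries. The clearest steps among genes above 1 FPKM were from Slc1a1 down to Slc6a8 (higher in 63 of 66 libraries) and from Slc1a5 down to Slc17a9 (66 of 66).

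**Figure D1:**
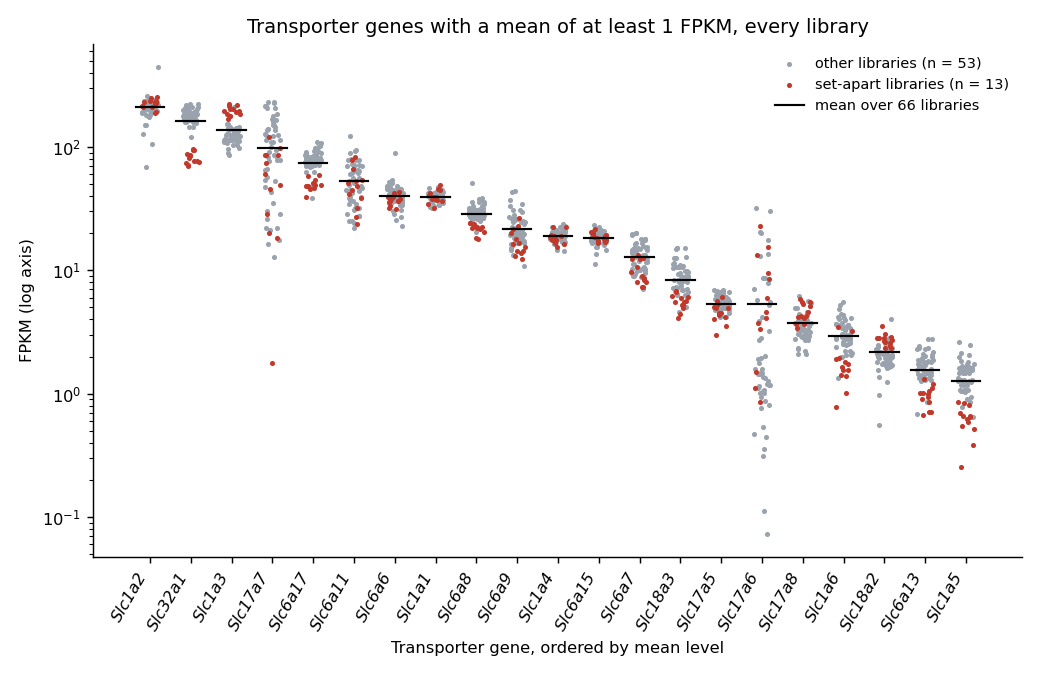
Level of 21 of the 22 transporter genes with a mean of at least 1 FPKM in every library (points, log axis), ordered by the mean over 66 libraries (black bars). Set-apart libraries (red, n = 13) sit below the others (grey, n = 53) for Slc32a1, whereas Slc17a7 and Slc17a6 are spread widely in both.

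Among the glutamate carriers, Slc1a2 (GLT-1), which astrocytes use to clear most synaptic glutamate, was the most abundant transporter at 212 ± 44.2 FPKM (SD, n = 66). It ranged from 68.7 FPKM in iMSN-D2RKO saline ZT7 replicate 1, the library with the highest FPKM sum, to 443 FPKM in WT cocaine ZT15 replicate 3. Slc1a3 (GLAST), the other main astrocyte glutamate transporter, averaged 137 ± 34.1 FPKM. The neuronal transporter Slc1a1 (EAAC1) averaged 39.1 ± 3.72 FPKM and ranged only from 31.9 to 49.3 FPKM. Slc1a6 (EAAT4), best known from Purkinje cells, averaged 2.92 ± 1.01 FPKM, and Slc1a7, a retinal form, stayed at or below 0.0682 FPKM.

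Slc6a11 (GAT-3), an astrocyte GABA transporter, averaged 52.7 ± 20.7 FPKM (SD, n = 66) and ranged from 22.2 to 123 FPKM. Slc6a6, the taurine transporter, averaged 40.2 ± 8.72 FPKM and reached 89.5 FPKM in WT cocaine ZT15 replicate 3, where the next highest library had 53.5 FPKM. Slc6a13 (GAT-2), which is found in meninges and liver, was low at 1.56 ± 0.484 FPKM, and Slc6a12, the betaine transporter, stayed at or below 0.333 FPKM.

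Slc6a17, a carrier of neutral amino acids on synaptic vesicles, averaged 74.1 ± 16.6 FPKM. The related Slc6a15 averaged 18.4 ± 2.0 FPKM and the proline transporter Slc6a7 averaged 12.7 ± 3.39 FPKM. The creatine transporter Slc6a8 averaged 28.7 ± 5.42 FPKM. Slc6a9 (GlyT1), the glycine transporter of glia, averaged 21.5 ± 6.81 FPKM, whereas Slc6a5 (GlyT2), which marks glycinergic neurons of the hindbrain and spinal cord, was at 0 in 51 of 66 libraries. The neutral amino acid exchangers Slc1a4 (ASCT1) and Slc1a5 (ASCT2) averaged 19 ± 1.91 and 1.27 ± 0.482 FPKM.

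Among the genes above 1 FPKM, the vesicular glutamate transporters Slc17a6 and Slc17a7 had the widest spread between libraries. Slc17a7 (VGLUT1), the form of cortical and hippocampal projection neurons, averaged 98.5 ± 62.6 FPKM (SD, n = 66) and ranged from 1.78 FPKM in iMSN-D2RKO cocaine ZT15 replicate 3 to 233 FPKM in WT cocaine ZT23 replicate 2. The spread lay within groups, and the 3 WT libraries of ZT3 already read 114, 231 and 123 FPKM. Slc17a6 (VGLUT2), the form of thalamic and hypothalamic neurons, had a median of 1.84 FPKM and ranged from 0.0731 to 32.2 FPKM, with 54 of 66 libraries at 1 FPKM or more. Slc17a8 (VGLUT3), found in some cholinergic interneurons of the striatum, was steadier at 3.73 ± 0.965 FPKM. The summed level of 8 cortical projection neuron markers ranged from 7.88 to 139 FPKM between libraries and moved with Slc17a7, with a Pearson r of 0.83 on the log2(FPKM + 1) scale after centring each group (n = 66 libraries, given as a description) and of 0.95 without the set-apart libraries (n = 53). For Slc17a6 and the summed level of 10 thalamic and hypothalamic markers, 16.7 to 132 FPKM, this r was 0.76 (0.79 without the set-apart libraries), and it was 0.93 with or without them for Tcf7l2, a thalamic transcription factor in that list. All 8 cortical and 8 of 10 thalamic and hypothalamic markers had means of at least 1 FPKM, and Hcrt and Sim1 were the 2 below. Slc17a7 per unit of the cortical sum had a median of 0.714 in the 13 set-apart libraries (range 0.226 to 1.05) and 1.99 in the other 53 (0.721 to 3.13). Slc17a6 per unit of the thalamic and hypothalamic sum lay the other way, with medians of 0.114 (0.0444 to 0.422) and 0.0517 (0.00305 to 0.455), and the ranges overlapped. In bulk tissue, fewer cells of a type and less RNA per cell cannot be told apart, and the part of neighbouring tissue in these values was not tested.

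**Figure D2:**
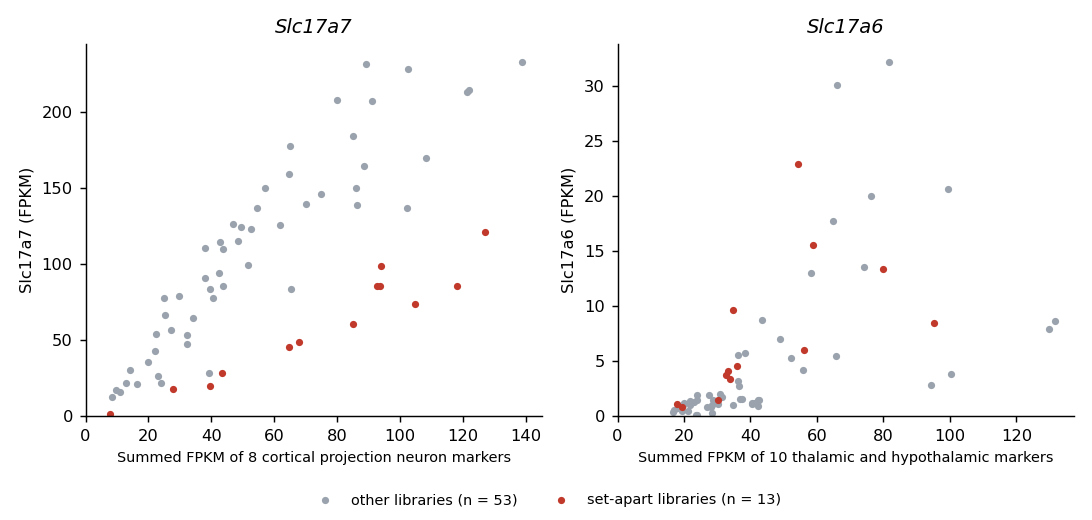
Slc17a7 (left) and Slc17a6 (right) in FPKM against the summed FPKM of marker genes of cortical projection neurons or of thalamic and hypothalamic neurons, 1 point per library. Slc17a7 per unit of the marker sum is lower in the set-apart libraries (red, n = 13, median 0.714) than in the other 53 (grey, median 1.99), whereas for Slc17a6 the medians are 0.114 and 0.0517.

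Slc32a1 (VGAT), which loads GABA and glycine into vesicles, was the second most abundant transporter at 164 ± 45 FPKM (SD, n = 66). Slc18a3 (VAChT), which loads acetylcholine, averaged 8.41 ± 2.71 FPKM, and Slc18a2 (VMAT2), which loads dopamine and other monoamines, averaged 2.16 ± 0.544 FPKM. Slc18a1, the endocrine form of the monoamine carrier, stayed at or below 0.135 FPKM. The transporters that cocaine binds were near 0. Slc6a3 (dopamine transporter) averaged 0.0854 ± 0.0554 FPKM with a highest library of 0.272 FPKM, Slc6a4 (serotonin transporter) reached at most 0.102 FPKM, and Slc6a2 (noradrenaline transporter) was at 0 in 54 of 66 libraries. Of 6 midbrain dopamine neuron markers, Th, Nr4a2 and Aldh1a1 were above a mean of 1 FPKM (Th at 8.34 ± 2.18 FPKM) and Pitx3, En1 and Lmx1b below, and the 6 summed to 19.7 to 67.8 FPKM. Of the other SLC17 carriers, the lysosomal sialic acid exporter Slc17a5 averaged 5.37 ± 0.834 FPKM, the nucleotide carrier Slc17a9 averaged 0.186 ± 0.0816 FPKM, and Slc17a1 to Slc17a4, which are kidney, liver or gut forms, stayed at or below 0.149 FPKM.

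The set-apart libraries differed from the others most in Slc32a1. At ZT15 to ZT23 the 12 set-apart libraries read 71.4 to 97.1 FPKM and the 24 others 120 to 217 FPKM (83.6 ± 8.73 against 177 ± 21.8 FPKM, mean ± SD). Slc32a1 is among the genes of the axis that set these libraries apart. Gad2, the enzyme that makes the GABA Slc32a1 transports, moved the other way, at 258 ± 40.7 against 134 ± 31.4 FPKM, while Gad1, the other form of that enzyme, was at 201 ± 34.2 against 232 ± 30.3 FPKM. Slc1a3 was higher in the set-apart libraries (193 ± 15.4 against 126 ± 23.2 FPKM), and Slc6a17 was lower (50.5 ± 4.37 against 77.5 ± 12.5 FPKM). Because these libraries were picked out with all genes in view, their differences are a description and carry no test. Across the 22 transporters, the mean difference between set-apart and other libraries on the log2(FPKM + 1) scale ran from -1.07 for Slc32a1 to 0.90 for Slc17a6. It followed the GC content of the longest coding transcript, with a Pearson r of -0.82 across the 22 genes. The 2 transporters with the highest GC content, Slc32a1 (61.9%) and Slc18a3 (61.2%), were both lower in the set-apart libraries, and the 3 with the lowest, Slc6a15 (42.3%), Slc18a2 (42.9%) and Slc17a6 (42.9%), were all higher. The same r was -0.65 over the 11828 genes with a GC value, of 12945 genes with a mean of at least 1 FPKM. With transcript length in place of GC content, r was 0.40 across the 22 transporters and 0.37 across all such genes. These are correlations across genes, which share the libraries and are not independent. What sets the libraries apart was not tested.

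**Figure D3:**
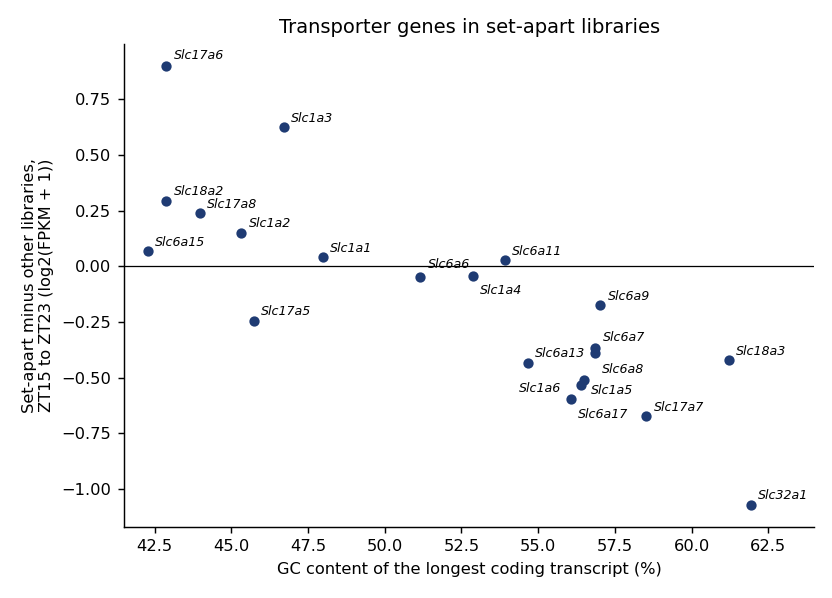
Difference in mean log2(FPKM + 1) between the 12 set-apart and the 24 other libraries of ZT15 to ZT23, against the GC content of the longest coding transcript, for 21 of the 22 transporters with a mean of at least 1 FPKM. Values fall from left to right, from 0.90 for Slc17a6 to -1.07 for Slc32a1.

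Time of day was tested over all 66 libraries with genotype and treatment in the model. Of the 22 transporters tested, 10 varied with time at an adjusted p under 0.05, against 49.9% of all 14643 genes, so the share of transporters called was near that of all genes. Among the 10 were Slc1a5, Slc18a3, Slc6a17, Slc32a1, Slc6a8, Slc6a6, Slc6a9, Slc6a13 and Slc1a6. Because 12 of the 13 set-apart libraries fall at ZT15 to ZT23, time and set-apart status overlap. Without the set-apart libraries, 5 transporters were called (among them Slc1a5, Slc18a3, Slc6a17 and Slc6a6), against 23.3% of all genes. The ZT3 libraries also differ from all others in having had no time after an injection, which cannot be told apart from the hour. Their summed level of 8 choroid plexus markers was 63.3 to 179 FPKM (median 112, n = 6). At the other times its medians were 8.22 to 12.7 FPKM, with single libraries up to 1155 FPKM at ZT11 and 514 FPKM at ZT19. The part of this difference in the time results was not tested. Without the ZT3 libraries 8 transporters were called (43.8% of all genes). Without both the ZT3 and the set-apart libraries 2 were (Slc1a5 and Slc6a17, against 17.6% of all genes). Without all libraries numbered replicate 1, 1 was called (11.5% of all genes), and without those numbered 3, 4 were (16.7%).

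By group means, Slc18a3 peaked at ZT3 in WT saline (11.3 FPKM) and in both iMSN-D2RKO series (11.5 FPKM), which share their ZT3 libraries. In WT cocaine it peaked at ZT7 (12.6 FPKM). Slc18a3 had its lowest group mean at ZT23 in WT saline and iMSN-D2RKO cocaine, ZT19 in WT cocaine and ZT15 in iMSN-D2RKO saline. Its 6 ZT3 libraries ranged from 8.38 to 14.8 FPKM (median 11), its 12 ZT7 libraries from 5.21 to 15.3 FPKM (median 10.3), its 12 ZT19 libraries from 4.6 to 15.1 FPKM (median 6.31) and its 12 ZT23 libraries from 4.08 to 8.06 FPKM (median 7.14). The ZT3 and ZT23 ranges did not overlap, and WT saline ZT19 replicate 3, at 15.1 FPKM, stood far above the other ZT19 libraries. The time range of the fit was 0.70 on the log2(FPKM + 1) scale (limma adjusted p = 4.02e-04). Slc18a3 was not called once both the ZT3 and the set-apart libraries were left out. The ZT23 mean was 6.71 ± 1.32 FPKM (n = 12) with and 7.41 ± 0.594 FPKM (n = 8) without the set-apart libraries, against 11.4 ± 2.17 FPKM (n = 6) at ZT3.

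Slc1a5 had medians of 1.52 FPKM at ZT7 and ZT11 and of 0.751 FPKM at ZT19 (12 libraries each). Ranges overlapped, 0.838 to 2.60 FPKM at ZT7 and 0.387 to 1.5 FPKM at ZT19, and the adjusted p was 1.94e-04. Without the set-apart libraries the ZT19 mean was 1.13 ± 0.317 FPKM (n = 6) against 1.63 ± 0.491 FPKM at ZT7 (n = 11). Slc6a17 averaged 87.7 ± 8.70 FPKM at ZT11 and 60.3 ± 16.6 FPKM at ZT19 (n = 12 each, adjusted p = 0.00153), and the ZT19 mean was 70.5 ± 18.3 FPKM (n = 6) without the set-apart libraries. For Slc6a6 the highest mean, 45.2 ± 3.33 FPKM at ZT11, and the lowest, 35.2 ± 3.83 FPKM at ZT3, were 0.34 apart on the log2(FPKM + 1) scale in the fit (adjusted p = 0.0121).

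The values of Slc32a1 differed with and without the set-apart libraries. Its ZT19 mean was 126 ± 52.0 FPKM (n = 12) with them and 171 ± 31.7 FPKM (n = 6) without, against 185 ± 15.9 FPKM at ZT11 (n = 12, none set apart). The adjusted p of 0.00524 became 0.108 once the set-apart libraries were dropped, and 0.111 when each library's position on the leading axis was a covariate. Dropping them also left fewer libraries at ZT15 to ZT23, and Slc32a1 is itself among the genes of that axis. What the set-apart libraries contribute to its time course was therefore not tested. Slc6a8, Slc6a9, Slc6a13 and Slc1a6 were likewise called over all libraries (adjusted p of 0.00810, 0.0158, 0.0236 and 0.0434) and not without the set-apart libraries (0.122, 0.0628, 0.0890 and 0.155). For Slc6a9 the means descended from 29.3 ± 8.05 FPKM at ZT3 (n = 6) to 17.0 ± 3.64 FPKM at ZT23 (n = 12), or 17.2 ± 3.54 FPKM (n = 8) without the set-apart libraries. The level of Slc6a9 moved with 8 oligodendrocyte markers (r of 0.84 after centring each group, n = 66, and 0.86 without the set-apart libraries, n = 53), whose part in the result was not tested.

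**Figure D4:**
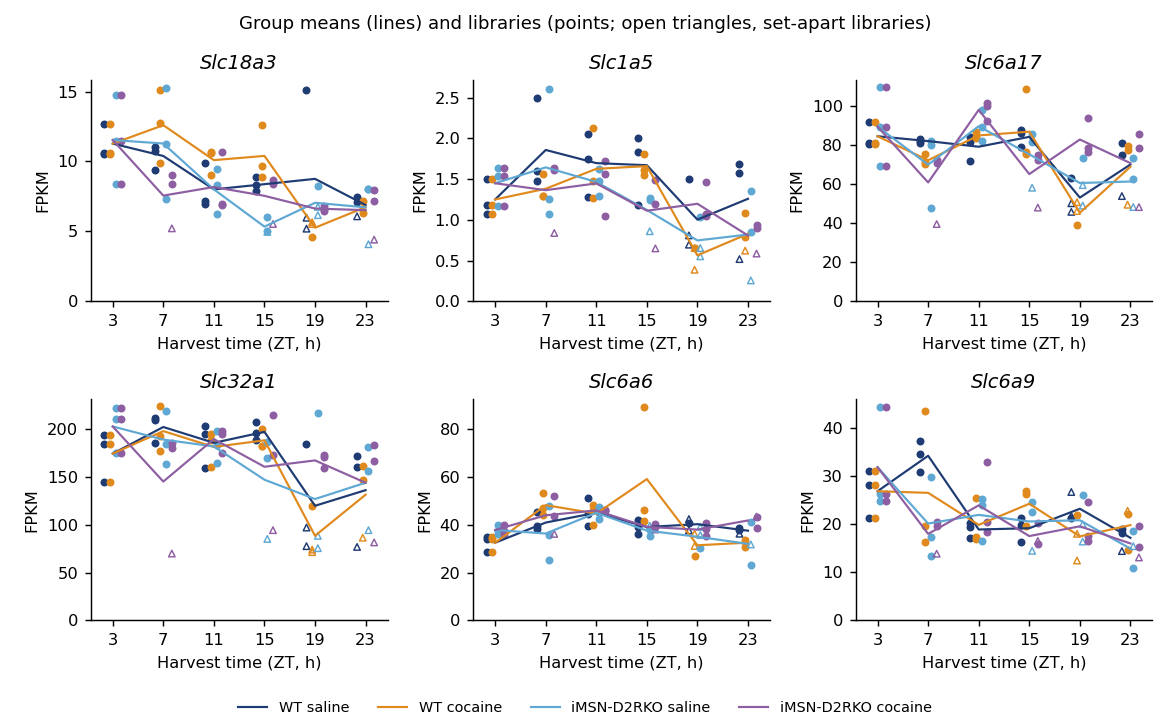
FPKM of 6 transporters called for time of day at the 6 harvest times, as group means (lines) and single libraries (points, open triangles for set-apart libraries), for WT and iMSN-D2RKO mice given saline or cocaine. ZT3 points are shared by both series of a genotype, and most open triangles lie at ZT15 to ZT23 and at the low edge for Slc32a1, Slc6a17 and Slc1a5.

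The region before the start is shown for Slc18a3 and Slc6a17, which were called for time of day with and without the set-apart libraries. Slc1a5 and Slc6a6 were called in both ways too and are not shown. Both sequences are the 250 bases upstream of the start, 5′ to 3′ on the gene's strand (minus for both), from RefSeq on GRCm38.p6, with each CG dinucleotide in capitals.
Slc18a3, chr14:32464851-32465100: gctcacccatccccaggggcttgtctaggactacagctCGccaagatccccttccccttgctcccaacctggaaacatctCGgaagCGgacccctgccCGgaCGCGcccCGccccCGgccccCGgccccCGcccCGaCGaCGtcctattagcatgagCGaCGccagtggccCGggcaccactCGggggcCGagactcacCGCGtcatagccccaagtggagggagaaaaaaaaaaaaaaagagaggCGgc
Slc6a17, chr3:107518019-107518268: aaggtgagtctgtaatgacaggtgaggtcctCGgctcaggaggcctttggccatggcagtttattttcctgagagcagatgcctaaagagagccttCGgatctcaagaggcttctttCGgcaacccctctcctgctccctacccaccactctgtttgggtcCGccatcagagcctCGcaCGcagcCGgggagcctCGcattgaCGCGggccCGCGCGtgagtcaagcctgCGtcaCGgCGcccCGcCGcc

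These windows hold 21 and 18 CG dinucleotides, and 16.5% and 21.8% of 32544 promoter windows of the same length hold as many (median 6). Slc6a17 has another listed start, whose window (chr3:107500741-107500990) is not shown. It holds 2 CG dinucleotides, and 81.4% of windows hold as many. Entries were found for 26 of the 37 transporters (39 windows). Letters searched on both strands were the E-box CACGTG, bound by CLOCK and BMAL1, the D-box core TTATGTAA, the cAMP response element TGACGTCA and the nuclear receptor half-site AGGTCA. None of these is in either window shown. CACGTG was in 3 of the 39 windows (those of Slc1a6, Slc1a7 and Slc6a3) and in 6.03% of all promoter windows, TTATGTAA in 1 (Slc17a1) and 0.811%, TGACGTCA in 0 and 1.55%, and AGGTCA in 5 and 14%. Slc18a3 lies at chr14:32462438-32464850 on the minus strand, and its only exon is within the first intron of Chat, the acetylcholine synthesis gene, between Chat exons at 32460725-32460913 and 32465807-32465957. Reads from unspliced Chat RNA and from Slc18a3 share a strand there, so the FPKM of Slc18a3 is uncertain. Over the 66 libraries the centred r of Slc18a3 with Chat was 0.25, and that with Slc5a7, the choline transporter of the same neurons, was -0.33. At ZT15 to ZT23, Slc5a7 was 14.5 ± 1.81 FPKM in the 12 set-apart and 7.80 ± 1.80 FPKM in the 24 other libraries. Slc18a3 lay the other way, at 5.58 ± 0.828 against 7.98 ± 2.21 FPKM. Chat read 11.3 ± 1.36 against 10.7 ± 2.78 FPKM. The part of the set-apart libraries in these r values was not tested.

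Rhythms were tested in each series of 18 libraries with JTK_CYCLE, which compares the order of values with cosine curves of 20 and 24 h, and called at a corrected p under 0.01. In WT saline no transporter of 22 was rhythmic, against 9.81% of all genes, and in iMSN-D2RKO cocaine none was, against 1.1%. In WT cocaine 1 of 22 was rhythmic, against 7.61%, and in iMSN-D2RKO saline 1 of 22, against 2.58%. In both series that gene was Slc18a3. In WT cocaine its 3 libraries read 10.6, 10.5 and 12.7 FPKM at ZT3, 9.88, 12.8 and 15.1 at ZT7, 10.6, 10.7 and 9.06 at ZT11, 12.6, 9.66 and 8.92 at ZT15, 5.66, 4.6 and 5.52 at ZT19 and 6.32, 7.17 and 6.70 at ZT23. Every library from ZT3 to ZT15 was above every library of ZT19 and ZT23. JTK_CYCLE placed the peak at ZT9 with a 24 h period and a corrected exact p of 4.86e-04.

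In iMSN-D2RKO saline, Slc18a3 read 14.8, 8.38 and 11.4 FPKM at ZT3, 15.3, 11.3 and 7.30 at ZT7, 6.26, 9.44 and 8.31 at ZT11, 5.01, 6.04 and 4.96 at ZT15, 6.16, 8.22 and 6.75 at ZT19 and 8.06, 8.01 and 4.08 at ZT23. The lowest time was ZT15, where all 3 libraries were below every library of ZT3, ZT7 and ZT11. The peak was placed at ZT5 (corrected exact p = 0.00223, with 1 replicate left out by Dixon's test, which removed a library of ZT23). Neither call held without the set-apart libraries, where the corrected exact p was 0.0435 in WT cocaine and 0.107 in iMSN-D2RKO saline. The second call also depended on that removal, with a corrected exact p of 0.0146 when all 3 replicates were kept, and on ZT23, since it was 0.0154 without either replicate 1 or replicate 2 of that time. Being called in these series and not in the other 2 does not show that rhythms differ. The difference between series was tested with a 24 h cosine (cocaine against saline in each genotype, iMSN-D2RKO against WT in each treatment). In each of the 4 limma tests, 0 of 22 transporters and 0% of all genes were called. At most 1 transporter had an unadjusted p under 0.05 in any of them. The share of all genes at that unadjusted threshold is not given here. Of the other transporters, Slc32a1 and Slc6a6 had corrected p of 0.0146 and 0.0199 in WT cocaine and of 0.0476 and 0.0146 in WT saline, and were not called.

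Whether cocaine altered transporter levels was tested as cocaine minus saline over ZT7 to ZT23, with 15 libraries on each side. In WT mice 0 of 22 transporters were called by limma at an adjusted p under 0.05, against 0% of 14392 genes, and in iMSN-D2RKO mice 0 of 22, against 0% of 14238 genes. At an unadjusted p under 0.05 there were 2 transporters in WT (Slc17a5 and Slc1a5, both lower in cocaine) and 3 in iMSN-D2RKO (Slc6a6, higher, and Slc1a6 and Slc6a7, lower), against 2.54% and 2.98% of all genes. The largest of these differences was -0.27 for Slc6a7 in iMSN-D2RKO (SE 0.128, 95% interval -0.53 to -0.01, on the log2(FPKM + 1) scale). The median over the 22 transporters was -0.06 in WT and 0.02 in iMSN-D2RKO, beside medians of 0.00 and -0.01 over all genes. In WT, the 95% interval lay within 1 log2 unit of 0 for 20 of 22 transporters and within 0.5 for 19, and in iMSN-D2RKO for 20 and 18. The wide intervals were those of Slc17a7 and Slc17a6, which reached -1.2 for Slc17a6 in WT and -1.60 in iMSN-D2RKO. Decreases of that size in Slc17a6 were therefore not excluded. The cocaine effect was not called as different between genotypes for any of 22 transporters, against 0% of 14622 genes. No transporter had an unadjusted p under 0.05 in that test, against 1.68% of all genes.

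At single time points (3 libraries of cocaine against 3 of saline, with the spread taken from all 22 groups) no transporter was called in any of the 10 contrasts. The share of all 14643 genes called was 0.00683% at ZT7, 0% at ZT11, 0.00683% at ZT15, 0.0205% at ZT19 and 0% at ZT23 in WT, and 0.0137% at ZT7 and 0% at the other 4 times in iMSN-D2RKO. The transporter with the smallest p in any of them was Slc6a7 at ZT15 in iMSN-D2RKO, with a log2 difference of -0.77 (SE 0.222) and an adjusted p of 1. At an unadjusted p under 0.05 there were 0 to 5 of 22 transporters per contrast, with the 5 at ZT7 in iMSN-D2RKO. The share of all genes at that unadjusted threshold is not given here, so these counts are not a result about transporters. Without the set-apart libraries, Slc18a3 (lower in cocaine) and Slc1a3 (higher) were called at ZT19 in WT, but that contrast then rested on 1 library per side, and 10.5% of all genes were called in it. Without replicate 3, Slc18a3 was called at ZT7 in iMSN-D2RKO (lower in cocaine), where 9.11% of all genes were.

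**Figure D5:**
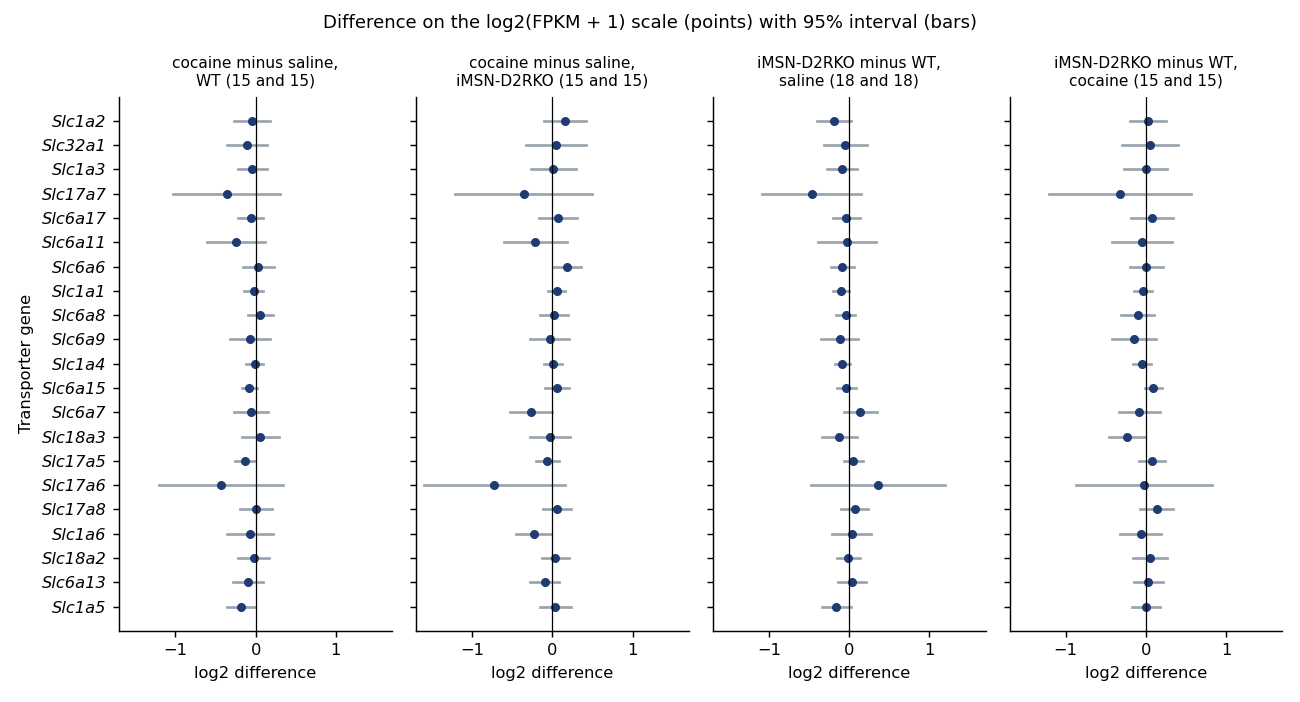
Differences of 21 of the 22 transporters on the log2(FPKM + 1) scale (points) with 95% intervals (bars) for cocaine against saline in each genotype and iMSN-D2RKO against WT in each treatment, with the number of libraries on each side above each panel. The widest intervals belong to Slc17a7 and Slc17a6, and no difference passed an adjusted p of 0.05.

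Between genotypes, iMSN-D2RKO minus WT, no transporter was called in saline (18 libraries each, 0 of 22 against 0.189% of 14287 genes) or in cocaine (15 each, 0 of 22 against 0.0487% of 14382 genes). In saline, with ZT3 included, 16 of 22 differences were below 0, with a median of -0.05, beside 0.01 over all genes. With each library scaled to 1 sum, 19 of 22 were below 0, and the median over all genes was -0.05. With median-ratio scaling 16 of 22 were below 0. The iMSN-D2RKO side holds ZT7 replicate 1, the library with the highest FPKM sum. In the main saline fit the smallest p belonged to Slc1a1. It ranged from 34.3 to 49.3 FPKM in WT (median 40.5) and from 31.9 to 43.5 FPKM in iMSN-D2RKO (median 37.5). Its difference was -0.10 (SE 0.0498, 95% interval -0.20 to 0.00, adjusted p = 0.505). In cocaine, 1 transporter had an unadjusted p under 0.05, Slc18a3, with a difference of -0.24 (SE 0.107, 95% interval -0.46 to -0.02) and an adjusted p of 1. For 20 of 22 transporters the interval lay within 0.5 log2 units of 0 in each treatment. Slc17a7 and Slc17a6 were again the exceptions, with intervals that reached -1.2 for Slc17a7 in cocaine and 1.19 for Slc17a6 in saline. The dopamine and serotonin transporters did not pass the filter on low values, so no difference was tested for them.

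Genes that make, break down or otherwise carry the same transmitters were set beside the transporters. Of 26 genes of transmitter synthesis and breakdown, 22 passed the filter, and 0 of these were called for cocaine or genotype. For time of day 9 of 22 were called, a share no higher than the 49.9% of all genes, among them Ache, which breaks down acetylcholine, and Maob and Maoa, which degrade monoamines. Of 16 other carriers of amino acids and choline, 0 of 16 were called for cocaine or genotype and 8 of 16 for time of day, again near 49.9%. JTK_CYCLE called 4 of these 16 carriers in WT cocaine (Slc7a11, Slc7a8, Slc38a3 and Slc7a5), against 7.61% of all genes, 1 in WT saline (Slc7a10), against 9.81%, and 0 in each iMSN-D2RKO series. Of the 22 genes of synthesis and breakdown it called 2 in WT saline, 1 in WT cocaine, 1 in iMSN-D2RKO saline and 0 in iMSN-D2RKO cocaine. Of 15 clock genes, it called 6 in WT saline (9.81% of all genes), 4 in WT cocaine (7.61%), 3 in iMSN-D2RKO saline (2.58%) and 2 in iMSN-D2RKO cocaine (1.1%).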

How the data were processed

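The authors deposited 1 table of FPKM values for 24138 genes, made per the study's methods from stranded, poly(A)-selected single-end libraries with TopHat, Bowtie and the Cufflinks tools (Cuffquant, Cuffnorm) on mm10, with CASAVA 1.8.2 per the submitters' processing notes. No counts were used, so depth and counting error are unknown. The 6 second listings of ZT3 libraries were identical to the first and were used once. A gene was kept if any library compared reached 1 FPKM. JTK_CYCLE was rebuilt after version 3.1 (periods of 20 and 24 h, 11 period and phase pairs, Bonferroni). Equal cosine values were put in the order recovered from p-values the study lists for WT saline (nothing else was taken from them), and other orders were tried. Levels were tested on log2(FPKM + 1) in R 4.3.3 by limma 3.58.1, using a mean-variance trend, time as a factor and Benjamini-Hochberg adjustment over all genes tested. Fold sizes on this scale understate changes of low genes. The members and lists were chosen with earlier results of these data known. Transporters were named by a rule (all accounted for, library values for those called). A single gene among them is counted in the tests but not reported here by name. Correlations are descriptions. Scripts were tested on simulated data. Replicate numbers were not treated as pairs. Set-apart libraries were those beyond the largest gap on the leading axis of variation inside groups (9584 genes above a mean of 5 FPKM, 43.6% of variance).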

Additional observations from a re-analysis of the deposited data

How the results depend on the processing

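The level comparisons between treatments and genotypes, their interaction, the 4 rhythm comparisons and the iMSN-D2RKO cocaine rhythms called 0 transporters under every alternative run (filters, pseudocount, scalings, each replicate number left out, without the set-apart libraries, library score as a covariate and replicate block, as each applied). Time of day called 10 transporters, 1 to 9 without each replicate number, 5 without the set-apart libraries and, in a choice made after seeing the data, 2 without the ZT3 and set-apart libraries. Leaving out single libraries, also chosen after seeing the data, gave 8 to 13. Single time points called 0, 0 to 1 without each replicate number and 2 without the set-apart libraries. WT saline rhythms numbered 0, and 2 with each library scaled to 1 sum, 1 with median-ratio scaling, 0 to 1 without each replicate number and 2 at a corrected p under 0.05. WT cocaine rhythms numbered 1, and 3 with sum scaling, 0 to 1 without each replicate number, 0 without the set-apart libraries and 5 at a corrected p under 0.05. The iMSN-D2RKO saline rhythms numbered 1, and 0 with sum scaling, with median-ratio scaling, without the set-apart libraries, with all 3 replicates kept and with Benjamini-Hochberg adjustment, 0 to 1 without each replicate number and 3 at a corrected p under 0.05. With the main settings JTK_CYCLE called 9.81% of all genes in WT saline, 7.61% in WT cocaine and 2.58% in iMSN-D2RKO saline. A looser threshold raises the share of all genes as well. The shares under the alternatives are not given here, so these rhythm counts are not a result about transporters. The cause of these shifts was not tested. Other orders of equal cosine values, tried after seeing the data, kept both Slc18a3 calls.

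Same-numbered libraries correlated over 0.1 in 3 of 15, 3 of 15, 9 of 18 and 4 of 15 pairs. Differently numbered libraries were not set beside them, so this does not settle whether the numbers pair libraries. The main tests used no pairing. With a replicate block, time of day called 10 transporters and the other tests 0. Log2 differences of transporters called in a level comparison had no alternative because none was called. FPKM carry no depth, so counting error at low levels is unknown.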
